A study of Mus musculus with 14 samples.

Results

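Ter cells of the spleen were set against megakaryocyte-erythroid progenitors (MEP) of the bone marrow over 12798 genes, which is 25.8% of the 49583 genes measured by RNA sequencing in mouse blood cell populations. A gene was included when its group mean reached 1 FPKM (fragments scaled to exon length in kilobases and to library size) in either population. The series holds 14 samples in 7 groups, and each of these groups has 2. Ter cells were taken by sorting from spleens of C57BL/6 mice that bore a tumour, as positive for the erythroid antigen Ter-119 and negative for CD45 and lineage markers. The labels describe the MEP as c-Kit+, CD34+ and low for FcγR, without lineage markers, IL-7R or Sca-1, from the marrow of C57BL/6 mice. Mice of both groups are labelled wild type, and the labels give a purity above 98%. The comparison therefore joins a difference in tissue, in the sorted population and in the presence of a tumour, and these cannot be told apart. The kind of tumour and the ages of the mice of these 2 populations were not stated. No source states whether the 2 samples of each population are different animals. The p-values therefore cover the spread between these samples alone, which may be technical.

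MEP are known as bipotent progenitors that give rise to platelet-forming megakaryocytes and to red cells. Red cell precursors switch on globin, heme synthesis and membrane skeleton genes under the transcription factors GATA1 and KLF1, divide several times and then stop. In the mouse the spleen serves as a site of stress erythropoiesis, where macrophages surround and nurse the erythroblasts.

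Of the 12798 genes, 10319 code for proteins, 8623 reached 1 FPKM in both groups, 2877 only in spleen Ter and 1298 only in MEP. At the edge of the choice, Gm6206 had a higher mean of 1.0002 FPKM and Gm20342, just outside, one of 0.99936 FPKM. By the group means, 3856 genes were at least 2-fold higher (30.1%) and 2623 at least 2-fold lower in spleen Ter (20.5%) on the log2(FPKM + 1) scale, which understates the change of low genes. The deposited group means could be separated into their 2 libraries, called A (the deeper) and B, for 12525 of these genes in both groups. The other 273, among them the globin and S100 genes, have a group mean only and no test. Depths, read from the steps between low values, were 15107000 and 14545000 fragments in spleen Ter and 24622000 and 20079000 fragments in MEP. Of the separated genes, 11815 passed the filter for the test (at least 1 FPKM in 2 of the 8 libraries fitted together).

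The limma fit called 3014 genes higher in spleen Ter, which is 23.3% of the 12963 genes tested in the series, and 2510 lower, which is 19.4%, together 42.6%. A call needed an adjusted p below 0.05 (Benjamini-Hochberg) and a difference of 1 or more on the log2 scale. All of these calls lie among the 12798 genes, which the fold threshold makes certain. The 1148 tested genes outside them could not be called, which lowers these shares. Counts given below for gene lists are read against these shares, and a count near them says little about its list. The 2 spleen Ter libraries differed more than 2-fold in 2878 tested genes (22.2%), of which 2324 were higher in B and 554 in A, while the MEP libraries did so in 127 genes (0.980%). When each group was weighted by its own spread, 2330 genes were called higher (18.0%) and 1977 lower (15.3%), nearly all of them also called in the limma fit (2321 and 1974). Without library A of spleen Ter 3920 genes were called higher, and without library B 2633. Genes called in the limma fit, with the weights and without either spleen Ter library (each left out in turn) numbered 2018 higher and 1686 lower.

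**Figure D1:**
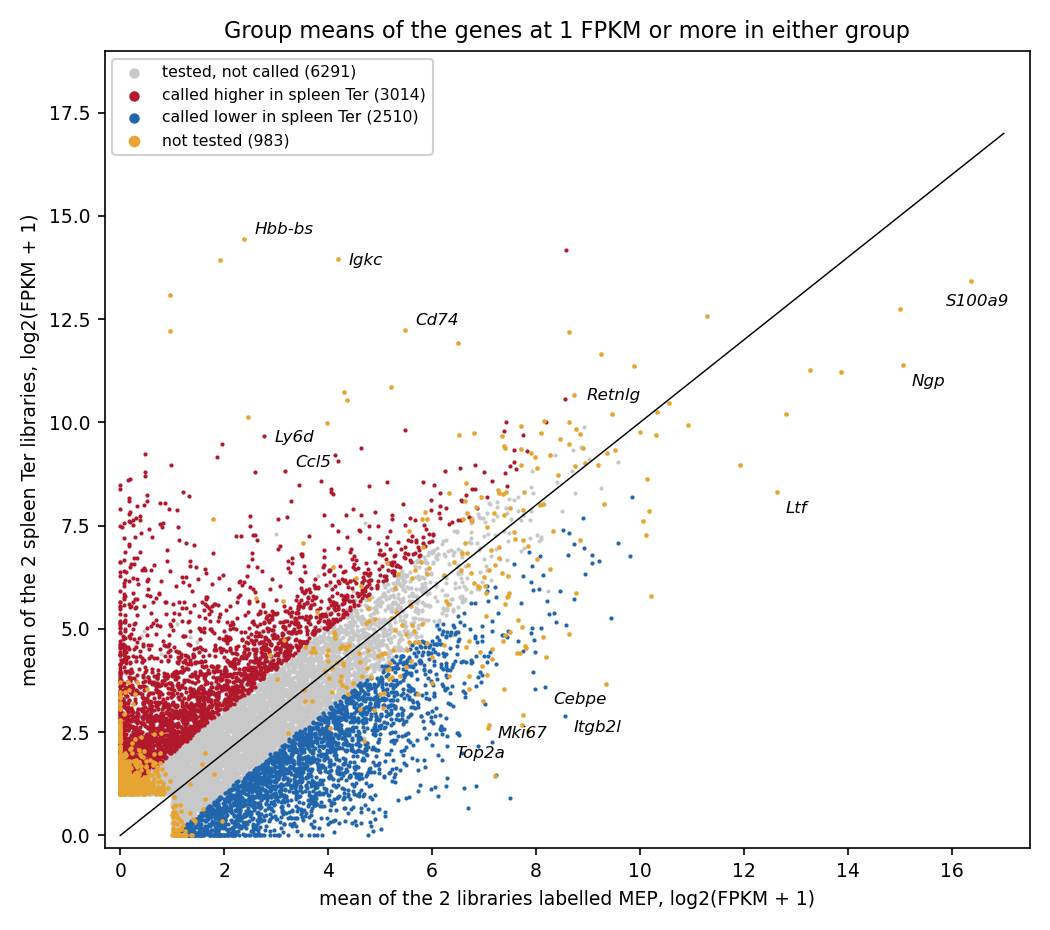
Mean of the 2 libraries labelled MEP (x axis) against the mean of the 2 spleen Ter libraries (y axis), both as log2(FPKM + 1), for the 12798 genes; the line marks equal means, and colours mark genes called higher (3014), called lower (2510), tested and not called (6291) or not tested (983). Globin, antibody and MHC class II genes lie far above the line, and the neutrophil genes S100a9, Ngp and Ltf far below it.

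The libraries labelled MEP went against that label at Klf1, Gata1 and Epor, and against the stated gate at Cd34. Klf1, a master regulator of red cell genes, was at 1.57 and 0.944 FPKM in them, Gata1 at 1.18 and 0.674, and the erythropoietin receptor gene Epor at 0.919 and 0.451. Cd34, an antigen of the stated gate, was at 0.111 and 0.0273 FPKM in the libraries labelled MEP, while the libraries labelled as common myeloid progenitors (CMP), stated to be CD34-, had a mean of 29.7 FPKM. Kit, the stem cell factor receptor gene, was present at 8.88 and 6.93 FPKM. The most abundant named gene in the libraries labelled MEP was S100a9, an antimicrobial protein of neutrophils, followed by Ngp and S100a8. Across all tested genes, 31.7% were called in either direction between the libraries labelled MEP and CMP. Every direction given here is relative to these libraries as they are.

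The spleen Ter libraries in turn held transcripts known from lymphoid and myeloid cells, which the stated gate is meant to exclude. Whether such cells or the sorted Ter cells supplied them was not tested. In bulk RNA, fewer cells of a type and less RNA per cell cannot be told apart. Adult globin genes, of the red cell lineage that the gate selects, held 13.7% of the mean FPKM in spleen Ter, against 0.00227% in MEP. Antibody constant and plasma cell genes held 6.09% in spleen Ter and 0.0396% in MEP, and MHC class II genes 2.57% in spleen Ter and 0.0293% in MEP. Secondary and tertiary granule genes of neutrophils held 2.999% in spleen Ter and 20.99% in MEP, and mature neutrophil genes 5.46% in spleen Ter and 31.3% in MEP. Most of the mature neutrophil share came from S100a9 and S100a8. The 22 separated genes of that list summed to 1994 and 1076 FPKM in spleen Ter and 2010 and 1977 FPKM in MEP. How far any such other cells enter the other differences was not tested. Ptprc, which encodes CD45, was not analysed here.

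**Figure D2:**
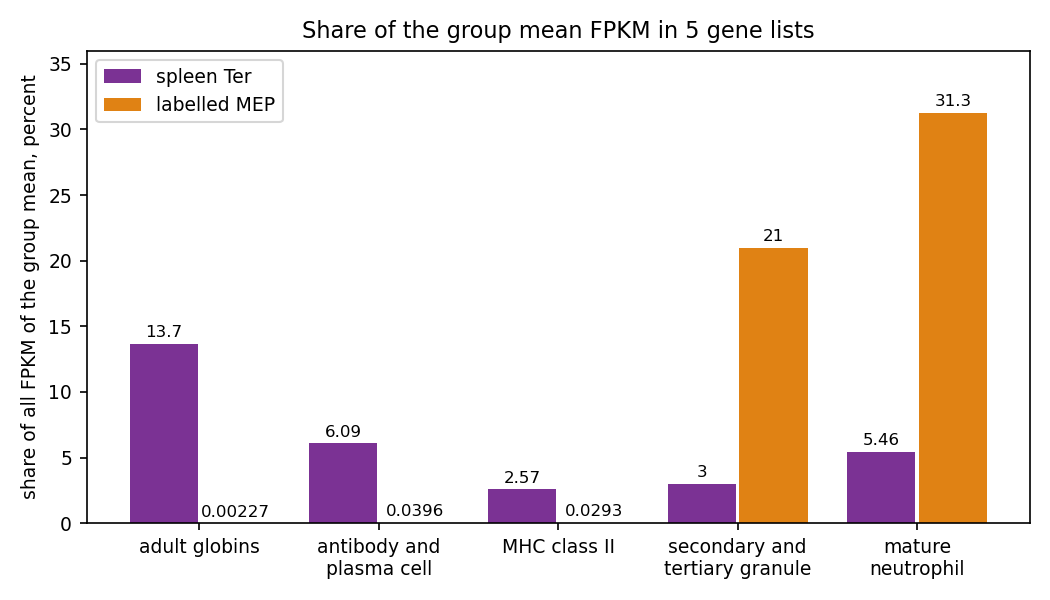
Share of the summed group mean FPKM, in percent, held by 5 gene lists in spleen Ter (left bar of each pair) and in the libraries labelled MEP (right bar). Globin, antibody and MHC class II lists are higher in spleen Ter, the 2 neutrophil lists in MEP. The mature neutrophil share comes mostly from S100a9 and S100a8.

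The calls also moved with transcript length. Protein-coding genes were put into 4 equal classes by exon length. Of 2638 genes in the shortest class (45 to 2714 bases), 1007 were called higher and 310 lower, and the median log2 fold change was 0.71. Of 2636 in the longest class (6661 to 41324 bases), 232 were called higher and 779 lower, and the median was -0.36. With that trend taken out, an alternative chosen after seeing the data, 2603 genes were called higher and 2606 lower.

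The globins, which carry oxygen, are known from group means only. Hbb-bs averaged 22394 FPKM in spleen Ter and 4.20 FPKM in MEP, and Hba-a1 averaged 15625 FPKM in spleen Ter and 2.77 FPKM in MEP. Hba-a2 averaged 8640 FPKM in spleen Ter and 0.953 FPKM in MEP, and Hbb-bt 4779 FPKM in spleen Ter and 0.949 FPKM in MEP. These near-identical copies share reads, so the split between copies is uncertain. Of 5 tested genes of the embryonic and theta globin list none was called, and 2 were called higher without library B. Hbq1b, a theta globin, had 37.0 and 0.0948 FPKM in spleen Ter and no fragment in MEP (adjusted p = 0.15 in limma), while Hba-x and Hbb-bh0 had no fragment in any of the 4 libraries.

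Of 11 tested heme synthesis genes, 6 rose and 1 fell in spleen Ter, with a median log2 fold change of 1.28 (all tested genes: 0.10). Alas2, the erythroid form of the first enzyme of the pathway, had 366 and 32.3 FPKM in the spleen Ter libraries, against 0.135 and 0.249 FPKM in MEP. Its log2 fold change was 6.54 ± 1.0501 (SE, from limma; adjusted p = 0.0033), and the groups did not overlap although the spleen Ter libraries lay far apart. Its housekeeping counterpart Alas1 moved the other way, with 4.95 and 3.68 FPKM in spleen Ter and 36.4 and 47.1 FPKM in MEP, and fell by 3.01 ± 0.22 on the log2 scale (adjusted p = 1e-04). Alad, the enzyme after it, was even between the libraries, at 30.7 and 28.1 FPKM in spleen Ter against 2.084 and 1.996 FPKM in MEP (log2 fold change 3.32 ± 0.15, adjusted p = 2.4e-05). Slc25a39, Tmem14c, Cpox and Uros were the others called higher, of which Cpox (log2 fold change 0.97) and Uros (0.58) fell under the fold threshold without library A and lost the call without either MEP library (adjusted p of 0.061 to 0.11). Urod (43.5 and 9.05 FPKM in spleen Ter, 7.603 and 7.862 FPKM in MEP) was not called, though it was without library B (adjusted p = 2.3e-05). Without library A 4 genes of the list were called higher, without library B 8, and 4 with the trend on exon length taken out. The 250 bases before the start of Alas2 are shown because the gene separates the groups and is a known GATA1 target. Capitals mark the GATA element AGATAA, here read from the other strand, 86 bases before the start (RefSeq, GRCm38.p6, chrX:150547167-150547416, plus strand):
Alas2: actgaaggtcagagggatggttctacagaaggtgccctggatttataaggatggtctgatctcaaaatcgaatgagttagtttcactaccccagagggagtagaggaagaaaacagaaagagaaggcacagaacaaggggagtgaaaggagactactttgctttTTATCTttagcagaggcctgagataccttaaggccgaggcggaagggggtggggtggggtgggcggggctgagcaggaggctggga
The word AGATAA, searched on both strands, occurs in 9.99% of 32851 such windows. Here and below, a listed gene counts if any of its windows holds the word, while the share is over single windows. Of 10 heme synthesis genes with a window Alas2 alone holds it, and of 4 adult globins Hbb-bs. A match is a description and not a binding site.

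Erythroid membrane genes were carried mostly by library A. Slc4a1, the band 3 anion exchanger, had 44.3 and 2.07 FPKM in spleen Ter against 0.158 and 0.275 FPKM in MEP and missed the threshold (adjusted p = 0.057), and without library A or library B it was called (adjusted p = 0.00064 and 5.9e-05). Rhd, a blood group antigen, was at 40.1 FPKM in library A and 0.0431 FPKM in library B, against 0.815 and 0.625 FPKM in MEP, and was called without library B alone (adjusted p = 0.00025). Of 13 tested genes of the membrane skeleton list 2 rose and 2 fell (Add1 and Stom; Add1 at a log2 fold change of -0.90 without library A), but 9 rose without library B, 3 without library A and 1 without either MEP library. The summed level of the 16 separated genes of the list was 394 and 63.7 FPKM in spleen Ter and 102 and 104 FPKM in MEP. The sum of library B lay below the libraries labelled MEP, while the median tested gene in library B lay 0.17 above them on the log2 scale. For scale, Slc4a1 averaged 23.2 FPKM in spleen Ter and 2558 FPKM in Ter cells of embryonic liver, sorted with the same antigens.

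No erythroid transcription factor rose. Klf1 had 17.52 and 0.584 FPKM in spleen Ter and 1.57 and 0.944 in MEP, so the groups overlapped (adjusted p = 0.32), and Gata1 had 4.97 and 1.07 FPKM in spleen Ter and 1.18 and 0.674 in MEP (adjusted p = 0.17). Without library B both were called higher (adjusted p = 0.0019 and 0.0087). Of 20 tested factors 5 fell, namely Lyl1, Myb, Nfe2, Ikzf1 and Foxo3, and 4 fell with group weights. Foxo3 lost the call with group weights (adjusted p = 0.086). Its log2 fold change was -0.67 with a pseudocount of 5 and -0.78 with the trend on exon length taken out. Lyl1, a stem and progenitor cell factor, had 3.97 and 7.14 FPKM in spleen Ter and 63.0 and 65.3 FPKM in MEP (log2 fold change -3.36 ± 0.23, adjusted p = 7.2e-05). Myb, which keeps progenitors dividing, had 1.67 and 1.74 FPKM in spleen Ter and 10.4 and 9.87 FPKM in MEP (log2 fold change -2.04 ± 0.16). Without library A the list gave 2 higher and 5 lower, and without library B 4 higher and 5 lower.

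Erythropoietin signalling, iron and late red cell genes gave mixed counts, against 23.3% called higher and 19.4% called lower among all tested genes. Of 11 tested genes of the erythropoietin receptor list, 3 rose and 1 fell, and none fell without spleen Ter library A or either MEP library. Epor had 3.69 and 2.87 FPKM in spleen Ter and 0.919 and 0.451 FPKM in MEP, and its log2 fold change was 1.35 ± 0.23 (adjusted p = 0.0028; 0.094 with group weights). Socs3, a feedback inhibitor of cytokine signalling, had 24.6 and 60.6 FPKM in spleen Ter and 6.32 and 4.53 FPKM in MEP (log2 fold change 2.64 ± 0.43). Of 12 iron genes 2 rose and none fell at the threshold, while the transferrin receptor gene Tfrc (17.8 and 5.22 FPKM in spleen Ter, 12.2 and 9.94 in MEP) overlapped between groups. Among 11 red cell metabolism and antioxidant genes 5 rose and none fell at the threshold. Bpgm, which makes the 2,3-bisphosphoglycerate that tunes hemoglobin, had 185 and 12.8 FPKM in spleen Ter and 1.81 and 1.28 FPKM in MEP (log2 fold change 4.33 ± 1.04, adjusted p = 0.011; 0.052 and 0.064 without MEP library A and B). Prdx2, a peroxide-removing enzyme of red cells, had 179 and 27.5 FPKM in spleen Ter and 5.29 and 4.28 FPKM in MEP. Catalase (Cat) differed less between libraries, with a log2 fold change of 1.65 ± 0.12. Of 15 reticulocyte maturation genes 5 rose and 1 fell, and 3 rose without MEP library A, with group weights or with median-of-ratios scaling.

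Platelet genes were split. Of 19 tested megakaryocyte and platelet genes 10 rose and 3 fell, with group weights 5 rose and 1 fell, and without library A 1 fell. Pf4, a chemokine of platelet granules, had 38.8 and 53.7 FPKM in spleen Ter and 0.225 and 0.0691 FPKM in MEP (log2 fold change 5.35 ± 0.38, adjusted p = 8.9e-05). Gng11 was likewise even, at 23.05 and 23.19 FPKM in spleen Ter and 0.928 and 0.867 FPKM in MEP. Of the genes that fell, Nbeal2, needed for platelet alpha granules, had 2.40 and 4.70 FPKM in spleen Ter and 48.9 and 47.8 FPKM in MEP, a log2 fold change of -3.49 ± 0.26 (adjusted p = 1e-04).

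Of 17 tested stem and early progenitor genes 6 fell and 1 rose. Erg, a stem cell factor, had 0.936 and 0.0198 FPKM in spleen Ter and 30.5 and 25.6 FPKM in MEP, and Gata2 had 0.540 and 0 FPKM in spleen Ter and 3.64 and 3.78 FPKM in MEP. Kit fell as well, with 0.490 and 2.91 FPKM in spleen Ter (log2 fold change -1.88 ± 0.42, adjusted p = 0.0085; 0.059 without MEP library A). Ly6a, the gene of the Sca-1 antigen that the MEP gate excludes, was among the genes with the greatest change, at 150 and 245 FPKM in spleen Ter and 0.270 and 0.331 FPKM in MEP (log2 fold change 7.21 ± 0.27, adjusted p = 1.6e-05).

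**Figure D3:**
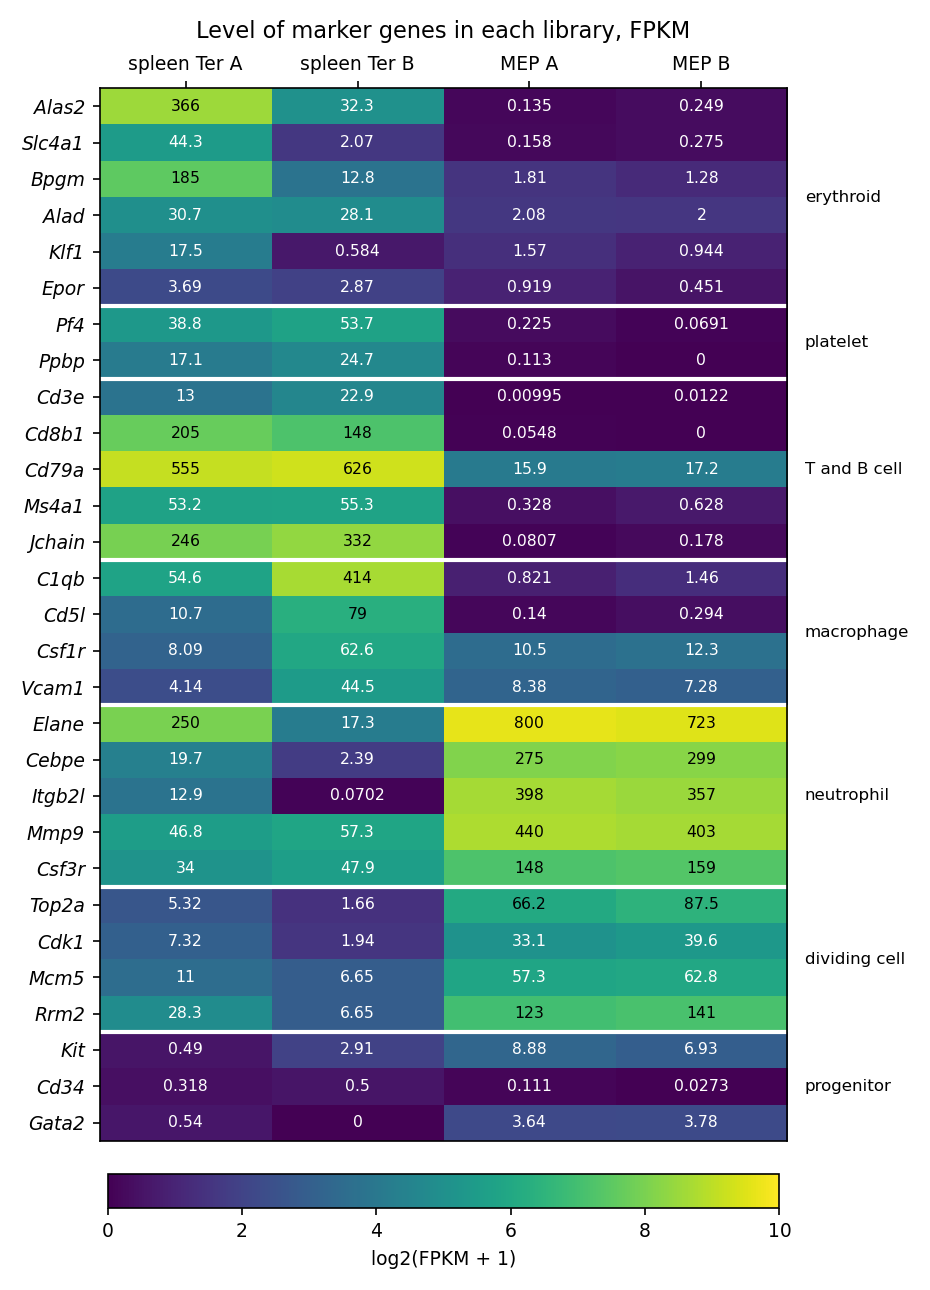
Level of 29 genes (rows, grouped by cell type) in each of 4 libraries (columns), printed in FPKM and coloured by log2(FPKM + 1) with the colour scale held between 0 and 10. Erythroid genes other than Alad and Epor differ widely between spleen Ter A and B, lymphoid genes are high in both, and neutrophil and dividing-cell genes are highest in the libraries labelled MEP.

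Neutrophil genes were the most abundant signal of the libraries labelled MEP and in sum lower in spleen Ter. There S100a9 and S100a8 still ranked among the most abundant genes. By group means alone, S100a9 was at 10967 FPKM in spleen Ter and 84794 FPKM in MEP, and Ngp at 2688 FPKM in spleen Ter and 34069 FPKM in MEP. Camp, an antimicrobial cathelicidin, averaged 2401 FPKM in spleen Ter and 14922 FPKM in MEP. Lactoferrin (Ltf) averaged 315 FPKM in spleen Ter and 6403 FPKM in MEP, and its spleen Ter libraries had 577 and 54.1 FPKM. Retnlg, a gene of mature neutrophils, averaged 1212 FPKM in spleen Ter and 1286 FPKM in MEP. Of 6 tested secondary and tertiary granule genes all fell (median log2 fold change -2.79), though Mmp8 and Mmp9 lost the call without any 1 of the 4 libraries (adjusted p of 0.10 to 0.14). Itgb2l had 12.9 and 0.0702 FPKM in spleen Ter and 398 and 357 FPKM in MEP (log2 fold change -6.62 ± 1.13, adjusted p = 0.0027). Padi4, which citrullinates histones in neutrophils, had 5.52 and 3.70 FPKM in spleen Ter and 86.9 and 90.1 FPKM in MEP. The 250 bases before 2 of these genes are shown because C/EBP factors are known to drive granule genes; capitals mark TTGCNNAA read on either strand (RefSeq, GRCm38.p6), 75 bases before the start of Ltf (chr9:111019042-111019291, plus strand) and 138 and 11 bases before that of Ngp (chr9:110419558-110419807, plus strand):
Ltf: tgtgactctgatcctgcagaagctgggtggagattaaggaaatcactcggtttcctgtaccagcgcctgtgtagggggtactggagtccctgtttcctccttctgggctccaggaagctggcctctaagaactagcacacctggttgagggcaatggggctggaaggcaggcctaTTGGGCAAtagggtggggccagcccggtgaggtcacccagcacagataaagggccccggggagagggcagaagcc
Ngp: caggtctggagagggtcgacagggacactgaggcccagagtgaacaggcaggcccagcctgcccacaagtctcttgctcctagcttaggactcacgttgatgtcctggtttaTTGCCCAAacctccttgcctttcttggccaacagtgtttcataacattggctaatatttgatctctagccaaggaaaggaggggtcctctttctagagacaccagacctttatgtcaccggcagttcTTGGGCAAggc
TTGCNNAA occurs in 9.56% of all windows and in 6 of 15 granule genes with a window (Anxa1, Lcn2, Ltf, Mmp8, Ngp and Retnlg). The looser TTNNGNAA, which contains every TTNNGCAA form of it, occurs in 36.8% of windows and in 10 of the 15.

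Primary granule and early myeloid genes, which mark promyelocytes, fell in 9 and rose in 3 of 16 tested (median log2 fold change -2.25). Elane, neutrophil elastase, had 250 and 17.3 FPKM in spleen Ter and 800 and 723 FPKM in MEP (log2 fold change -3.49 ± 1.14, adjusted p = 0.042; 0.15 and 0.14 without MEP library A and B). Cebpe, the factor that drives secondary granule genes, had 19.7 and 2.39 FPKM in spleen Ter and 275 and 299 FPKM in MEP (log2 fold change -5.10 ± 0.77, adjusted p = 0.0015). Those that rose, Ctsc, Nkg7 and Srgn, encode granule proteins that cytotoxic lymphocytes also make. The mature neutrophil list was divided, with 7 of 22 tested higher and 7 lower. Csf3r, the receptor for the neutrophil growth factor G-CSF, fell, with 34.0 and 47.9 FPKM in spleen Ter and 148 and 159 FPKM in MEP. Wfdc17, by contrast, had 644 and 249 FPKM in spleen Ter and 6.17 and 3.83 FPKM in MEP (log2 fold change 6.09 ± 0.50, adjusted p = 0.00015), and the stefin genes Stfa1, Stfa2, Stfa2l1 and BC100530, which are close copies of each other and uncertain one by one, also rose. Stfa2l1 lost the call without spleen Ter library A or MEP library B. With group weights Stfa1, Stfa2 and Stfa2l1 all lost it (adjusted p = 0.14, 0.12 and 0.27), as did Stfa1 with a pseudocount of 0.1 (adjusted p = 0.10). With group weights the list had 3 higher and 4 lower, and without either MEP library 4 were lower.

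Of the genes with the greatest fall outside these lists, some were even between the spleen Ter libraries and others higher in library A. Vcl, which links integrins to actin, had 0.949 and 0.947 FPKM in spleen Ter and 62.1 and 73.7 FPKM in MEP (log2 fold change -5.14 ± 0.17, adjusted p = 1.4e-05). Card9, an adaptor of fungal sensing, had 1.67 and 1.56 FPKM in spleen Ter and 79.9 and 75.1 FPKM in MEP. Plau, urokinase, had 0.0848 and 0.0587 FPKM in spleen Ter and 29.9 and 26.5 FPKM in MEP. Sept5, a septin, had 1.74 and 0 FPKM in spleen Ter and 183 and 178 FPKM in MEP. Fcnb, a ficolin of neutrophil granules, was uneven, with 70.9 and 3.75 FPKM in spleen Ter and 677 and 708 FPKM in MEP. Others of the 15 largest falls were Olfml2b, Mmp25, Sort1, Ntng2, Arap3, Olfm4 and Syne1, and Tpm3-rs7, a copy of Tpm3 whose reads may come from its parent.

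Myeloid transcription factors moved in both directions, with 11 of 20 higher and 6 lower. Cebpb, active in emergency and inflammatory myelopoiesis, had 168 and 166 FPKM in spleen Ter and 22.9 and 23.5 FPKM in MEP (log2 fold change 2.79 ± 0.22, adjusted p = 0.00012). Irf8, which favours monocytes and dendritic cells and also acts in B cells, had 28.0 and 57.1 FPKM in spleen Ter and 2.79 and 1.93 FPKM in MEP. Those that fell included Cebpa (0.728 and 1.17 FPKM in spleen Ter, 9.23 and 10.8 in MEP), Cebpe and Gfi1. Among 20 growth factor receptors 6 rose and 8 fell. Csf2ra, a subunit of the GM-CSF receptor, had 26.0 and 31.9 FPKM in spleen Ter and 259 and 218 FPKM in MEP, and Il7r, the lymphoid receptor that the MEP gate excludes, had 24.5 and 70.2 FPKM in spleen Ter and 2.48 and 2.64 FPKM in MEP.

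Most macrophage genes were higher in spleen Ter, mainly in library B, but the most abundant gene of the list was not. Of 21 tested macrophage and monocyte genes 11 rose and none fell at the threshold (9 and none with group weights), and without library A 17 rose. The summed level of the 25 separated genes of the list was 748 and 3462 FPKM in spleen Ter and 160 and 190 FPKM in MEP. Over all 26 genes the sum of the means was 4587 FPKM in spleen Ter and 10012 FPKM in MEP, because Lyz2, a lysozyme that neutrophils also make, averaged 2482 FPKM in spleen Ter and 9837 FPKM in MEP and could not be separated. C1qb, a complement subunit made by tissue macrophages, had 54.6 and 414 FPKM in spleen Ter and 0.821 and 1.46 FPKM in MEP (log2 fold change 6.16 ± 0.87, adjusted p = 0.0011). Spic, the factor of splenic red pulp macrophages, had 3.79 and 17.1 FPKM in spleen Ter and 0.148 and 0.0648 FPKM in MEP. Vcam1, an adhesion molecule of erythroblast islands, had 4.14 and 44.5 FPKM in spleen Ter and 8.38 and 7.28 in MEP, so that the MEP libraries lay between those of spleen Ter, and it was called higher without library A alone (adjusted p = 0.00022). Hmox1, which degrades heme, was at 18.0 and 136 FPKM in spleen Ter and 12.6 and 13.2 in MEP and was not called (adjusted p = 0.10; 0.0018 without library A).

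Mast cell and basophil genes fell in 6 and rose in 1 of 11 tested, and 3 fell without MEP library A. Prss34, a basophil protease, had 29.9 and 0.0565 FPKM in spleen Ter and 85.7 and 74.4 FPKM in MEP (log2 fold change -3.82 ± 1.36, adjusted p = 0.048; 0.16 and 0.14 without MEP library A and B). The mast cell tryptases Tpsb2 and Tpsab1 had no fragment in MEP. Of 10 eosinophil genes 4 rose and 1 fell, and 2 rose without either MEP library. Prg2, the major basic protein, had 117 and 29.4 FPKM in spleen Ter and 2.62 and 1.01 FPKM in MEP.

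T and B lymphocyte genes rose almost throughout. All 24 tested T cell genes rose, as they did without either spleen Ter library and with group weights, with a median log2 fold change of 4.19. Their summed level was 1412 and 1795 FPKM in spleen Ter and 23.7 and 22.5 FPKM in MEP. Cd8b1, a chain of the cytotoxic T cell coreceptor, had 205 and 148 FPKM in spleen Ter and 0.0548 and 0 FPKM in MEP (log2 fold change 7.41 ± 0.21, adjusted p = 1.2e-05). Cd3e, part of the T cell receptor complex, had 13.0 and 22.9 FPKM in spleen Ter and 0.00995 and 0.0122 FPKM in MEP. Cd4, the coreceptor of helper T cells, was lower than Cd8b1 and differed between the libraries, at 2.36 and 12.0 FPKM in spleen Ter and 0.0504 and 0.136 FPKM in MEP. Ccr7, which guides naive lymphocytes and dendritic cells into lymphoid tissue, had 181 and 118 FPKM in spleen Ter and 0.534 and 0.529 FPKM in MEP. Dapl1 had 59.3 and 39.9 FPKM in spleen Ter and no fragment in MEP, which makes it at least 248-fold higher (against a floor of 3 fragments per library). Of 14 natural killer and cytotoxic genes 10 rose and none fell at the threshold. Ccl5, a chemokine of cytotoxic and memory T cells, had 455 and 444 FPKM in spleen Ter and 7.19 and 8.72 FPKM in MEP.

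B cell genes rose in 18 of 20 tested and none fell at the threshold, and their summed level was 2511 and 2649 FPKM in spleen Ter and 164 and 162 FPKM in MEP. Cd79a, a signalling chain of the B cell receptor, had 555 and 626 FPKM in spleen Ter and 15.9 and 17.2 FPKM in MEP (log2 fold change 5.07 ± 0.55, adjusted p = 0.00038). Ly6d, a surface marker of B lineage cells, had 1018 and 606 FPKM in spleen Ter and 5.57 and 6.09 FPKM in MEP (log2 fold change 6.85 ± 0.43). Pax5, the factor that fixes B cell identity, was not called (4.52 and 6.03 FPKM in spleen Ter, 2.30 and 3.04 in MEP, adjusted p = 0.071). Antibody genes went further: 13 of 15 tested plasma cell and antibody constant genes rose, and the list's median was 6.28 on the log2 scale. Jchain, which joins secreted IgM and IgA, had the largest log2 fold change of the tested genes chosen by rule, at 246 and 332 FPKM in spleen Ter and 0.0807 and 0.178 FPKM in MEP (log2 fold change 7.99 ± 0.42, adjusted p = 3.4e-05). The kappa light chain gene Igkc averaged 15979 FPKM in spleen Ter and 17.3 FPKM in MEP, and ranked second among all named genes of spleen Ter. Ighg2c, an IgG class constant gene, had 99.5 and 616 FPKM in spleen Ter and no fragment in MEP. Among antigen receptor segments, whose copies share reads, 151 of 157 immunoglobulin variable genes and 36 of 37 T cell receptor variable genes were called higher. A segment could enter the test through the spleen Ter libraries alone, so the filter itself favours such counts. How far it sets them was not tested. Of 20 lymphoid fate factors 12 rose and 1 fell. Tcf7, which sustains naive T cells, had 40.3 and 109 FPKM in spleen Ter and 1.33 and 1.21 FPKM in MEP, and Ebf1, the early B cell factor, had 14.9 and 20.9 FPKM in spleen Ter and 1.32 and 1.41 FPKM in MEP.

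**Figure D4:**
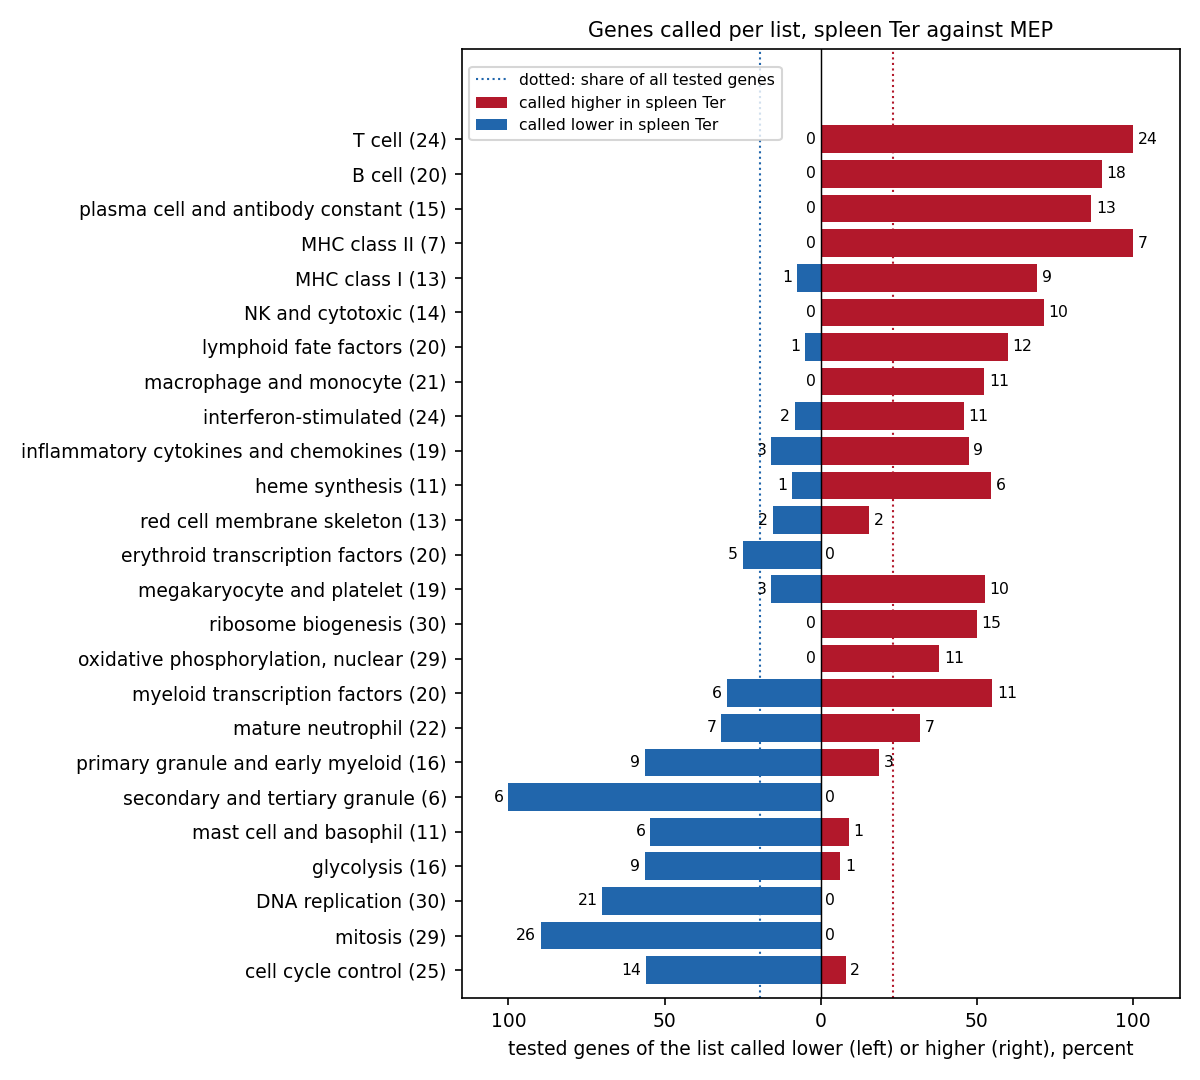
Percentage of the tested genes of 25 lists called higher (right, red) or lower (left, blue) in spleen Ter, with the counts at the bar ends, the number tested in brackets and dotted lines at the share of all tested genes (23.3% higher, 19.4% lower). The T cell and MHC class II lists were called higher throughout, and mitosis and secondary granule lists lower.

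MHC class II genes, which present peptides to helper T cells on B cells, macrophages and dendritic cells, rose in 7 of 7 tested, as they did without either spleen Ter library and with group weights. H2-DMa, which loads peptide, had 150 and 157 FPKM in spleen Ter and 5.89 and 4.13 FPKM in MEP (log2 fold change 4.70 ± 0.18, adjusted p = 1.8e-05). Ciita, the coactivator that switches the family on, had 9.81 and 19.2 FPKM in spleen Ter and 0.278 and 0.512 FPKM in MEP. The classical chains are known by group means, with H2-Ab1 at 1692 FPKM in spleen Ter and 18.9 FPKM in MEP, and the invariant chain Cd74 at 4860 FPKM in spleen Ter and 43.6 FPKM in MEP. Promoters of 2 classical genes are shown because class II promoters are known for a shared Y box; capitals mark CTGATTGG (RefSeq, GRCm38.p6), 51 bases before the start of H2-Aa (chr17:34287824-34288073, minus strand) and 62 bases before that of H2-Eb1 (chr17:34305617-34305866, plus strand):
H2-Aa: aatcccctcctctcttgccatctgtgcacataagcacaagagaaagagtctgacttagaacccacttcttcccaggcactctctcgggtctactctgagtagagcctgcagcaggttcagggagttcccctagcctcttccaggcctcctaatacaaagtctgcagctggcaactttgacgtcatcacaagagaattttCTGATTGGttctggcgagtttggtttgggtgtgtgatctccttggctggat
H2-Eb1: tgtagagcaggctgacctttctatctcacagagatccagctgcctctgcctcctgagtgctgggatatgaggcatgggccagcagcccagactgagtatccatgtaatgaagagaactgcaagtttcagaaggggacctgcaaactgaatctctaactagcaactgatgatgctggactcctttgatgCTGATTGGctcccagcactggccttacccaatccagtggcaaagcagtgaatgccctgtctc
CTGATTGG, searched on both strands, occurs in 3.83% of all windows and in 4 of 8 class II genes with a window (H2-Aa, H2-Eb1, H2-Eb2 and H2-Oa).

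MHC class I and its peptide loading genes rose in 9 of 13 tested and fell in 1, H2-Q4. H2-Q7 had 70.9 and 120 FPKM in spleen Ter and 9.46 and 8.42 FPKM in MEP, though class I genes are near copies and their reads may be shared. Of 24 interferon-stimulated genes 11 rose and 2 fell, but without MEP library A and B 6 and 5 rose, and with group weights 4 rose and none fell. Ly6e was even, at 311 and 439 FPKM in spleen Ter and 34.7 and 33.5 FPKM in MEP (log2 fold change 3.40 ± 0.17), while Isg15 had 104 and 25.3 FPKM in spleen Ter and 7.36 and 7.51 FPKM in MEP (adjusted p = 0.014; 0.067 and 0.066 without MEP library A and B). Oas2, a sensor of viral RNA, fell, with 1.56 and 4.06 FPKM in spleen Ter and 21.1 and 24.1 FPKM in MEP (adjusted p = 0.0045; 0.10 with group weights).

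Immune suppression genes rose in 9 of 16 tested and fell in 1. By group means, 9 of 18 genes of the list were at least 2-fold higher and 3 at least 2-fold lower. The summed mean of all 21 was 356 FPKM in spleen Ter and 733 FPKM in MEP. The 19 separated genes went the other way, with sums of 258 and 280 FPKM in spleen Ter and 124 and 112 FPKM in MEP. Cd274, the checkpoint ligand PD-L1, had 10.8 and 13.6 FPKM in spleen Ter and 2.35 and 1.97 FPKM in MEP (log2 fold change 2.06 ± 0.18, adjusted p = 0.0002). Ctla4, an inhibitory receptor of T cells, had 9.63 and 27.8 FPKM in spleen Ter and 0.0872 and 0.0641 FPKM in MEP. Il10, an anti-inflammatory cytokine, had 3.59 and 7.45 FPKM in spleen Ter and 0.0930 and 0.0760 FPKM in MEP. Tgfb1 was the tested gene that fell, at 6.45 and 10.6 FPKM in spleen Ter and 20.03 and 20.90 FPKM in MEP. Its log2 fold change was -1.21, and -0.89 without library A. These genes are also made by the T cells, B cells and macrophages whose markers rose, and that part was not tested. Of 15 TGF-beta and SMAD genes 3 rose and 2 fell, with 6 higher and 1 lower without library A and 5 lower without library B.

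Among 19 cytokine and chemokine genes 9 rose and 3 fell. Il1b, a cytokine of activated myeloid cells, had 431 and 236 FPKM in spleen Ter and 23.64 and 7.5997 FPKM in MEP (log2 fold change 4.46 ± 0.89, adjusted p = 0.0051; 0.17 with group weights). Tnf went the other way, at 15.5 and 13.9 FPKM in spleen Ter and 62.1 and 39.2 FPKM in MEP (adjusted p = 0.0012; 0.10 with group weights). Of 21 immediate early genes, which respond within minutes to stimuli and to cell handling, 10 rose and 1 fell. Nfkbia, the inhibitor that NF-kappa-B induces, had 524 and 381 FPKM in spleen Ter and 71.7 and 79.0 FPKM in MEP.

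**Figure D5:**
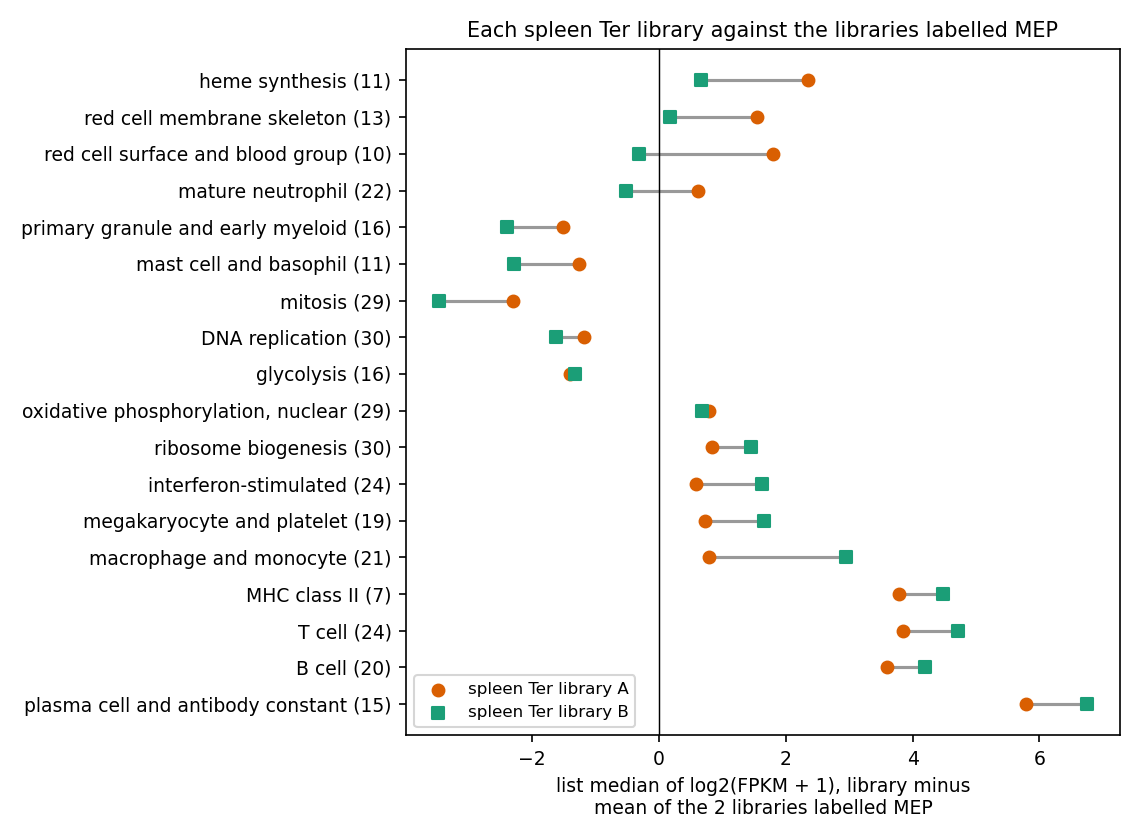
Median over the tested genes of 18 lists of log2(FPKM + 1) in spleen Ter library A (circles) and library B (squares), each minus the mean of the 2 libraries labelled MEP. Lymphoid and MHC class II lists lie above 0 and dividing-cell lists below 0 in both libraries, and red cell and macrophage lists lie farthest apart, with the red cell surface and mature neutrophil lists on opposite sides of 0.

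Genes of dividing cells were lower in spleen Ter. Of 29 tested mitosis genes 26 fell and none rose at the threshold (median log2 fold change -2.82), and of 30 DNA replication genes 21 fell and none rose at the threshold (median -1.47). Top2a, the topoisomerase that untangles chromosomes, had 5.32 and 1.66 FPKM in spleen Ter and 66.2 and 87.5 FPKM in MEP (log2 fold change -4.23 ± 0.38, adjusted p = 2e-04). Kif11, the motor that separates spindle poles, had 3.05 and 2.07 FPKM in spleen Ter and 52.7 and 60.5 FPKM in MEP. Mcm5, a subunit of the replicative helicase, had 10.99 and 6.646 FPKM in spleen Ter and 57.3 and 62.8 FPKM in MEP. E2f8, a repressor of the E2F family, had 0.936 and 0.0505 FPKM in spleen Ter and 33.4 and 33.2 FPKM in MEP. The mitosis list had 28 falls without library A, 26 without library B, 24 without either MEP library, 26 with the trend on exon length taken out and 27 with group weights. Uhrf1 and Dnmt1, which copy DNA methylation at replication forks, fell with them, by 3.29 ± 0.15 and 2.58 ± 0.30 on the log2 scale.

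Cell cycle control genes fell in 14 and rose in 2 of 25 tested, and the 2 that rose have roles in entry to the cycle. Myc, a growth factor response gene, had 82.4 and 70.1 FPKM in spleen Ter and 3.98 and 4.80 FPKM in MEP (log2 fold change 3.84 ± 0.26, adjusted p = 7e-05). Cyclin D2 (Ccnd2) had 15.9 and 29.4 FPKM in spleen Ter and 1.07 and 1.01 FPKM in MEP, whereas cyclin D3 (Ccnd3), the D cyclin of erythroblasts and neutrophil precursors, had 18.6 and 15.5 FPKM in spleen Ter and 47.6 and 59.2 FPKM in MEP (adjusted p = 0.0019; 0.081 with group weights). Ribosome biogenesis genes, many of them known Myc targets, rose in 15 of 30 and none fell at the threshold. Gnl3, a nucleolar GTPase, had 38.8 and 43.0 FPKM in spleen Ter and 6.69 and 4.23 FPKM in MEP (log2 fold change 2.72 ± 0.22), and Npm1 had 143 and 136 FPKM in spleen Ter and 53.4 and 41.6 FPKM in MEP.

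Among 17 BCL2 family genes 8 rose and 2 fell. Bcl2, a survival factor of lymphocytes, had 7.72 and 21.5 FPKM in spleen Ter and 1.34 and 1.02 FPKM in MEP, and Bak1, which opens the mitochondrial membrane in apoptosis, had 1.07 and 1.74 FPKM in spleen Ter and 24.7 and 26.0 FPKM in MEP. Glycolysis genes fell in 9 and rose in 1 of 16 tested. Hexokinase 2 (Hk2) had 1.697 and 1.9005 FPKM in spleen Ter and 28.2 and 23.6 FPKM in MEP (log2 fold change -3.26 ± 0.17, adjusted p = 3.2e-05), and the glucose transporter gene Slc2a3 had 6.57 and 11.6 FPKM in spleen Ter and 64.9 and 51.5 FPKM in MEP. The gene that rose was the transporter Slc2a1, at 12.9 and 15.5 FPKM in spleen Ter and 5.62 and 2.80 FPKM in MEP (adjusted p = 0.0022; 0.13 with group weights). Nuclear genes of oxidative phosphorylation rose in 11 of 29 and none fell at the threshold, and 5 rose with the trend on exon length taken out. Cox4i1, a subunit of cytochrome c oxidase, had 222 and 281 FPKM in spleen Ter and 73.1 and 66.6 FPKM in MEP.

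Some abundant genes were alike in the 2 groups. Cyba, a subunit of the phagocyte NADPH oxidase, had 590 and 520 FPKM in spleen Ter and 514 and 520 FPKM in MEP (log2 fold change 0.10 ± 0.14), and Fcer1g, the shared Fc receptor chain of myeloid cells, had 410 and 341 FPKM in spleen Ter and 348 and 330 FPKM in MEP. Sh3bgrl3, Arpc2, Taldo1, Calm2, Arpc5 and the mitochondrial genes mt-Nd5, mt-Nd2 and mt-Nd4 were also within 0.25 on the log2 scale. Not all mitochondrial genes were alike. By group means, mt-Rnr2 was at 4709 FPKM in spleen Ter and 396 FPKM in MEP. In contrast, mt-Co1 was at 975 FPKM in spleen Ter and 1950 FPKM in MEP. In the rest of the series, 67.0% of the genes called higher reached 1 FPKM in CMP and 42.0% in Ter cells of embryonic liver, against 83.6% and 53.6% of all tested genes. Of the genes called lower, 90.8% did so in CMP and 55.6% in embryonic liver. The shares of all tested genes are not a neutral reference, because the filter also let genes in through CMP or embryonic liver libraries. The tested genes include 1148 with means below 1 FPKM in both spleen Ter and MEP, which could not be called. How far this sets the gap between called and all tested genes was not tested.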

How the data were processed

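The authors deposited 1 table of group means in FPKM for 49583 genes. The genome build was mm10 per the submitters' processing notes, and for aligner, counter and annotation nothing is given in the sources used here. FPKM as the unit was read from the values. Symbols, gene types and coordinates come from GENCODE M21, matched by ID for 49324 genes, and promoters from RefSeq.

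In the spleen Ter, MEP, embryonic liver Ter and CMP columns deposited means could be written as whole fragment numbers of 2 libraries, each with a step set by its depth, and both libraries were recovered by search over steps and exon lengths (for 97.9% of the 12798 genes). The search was run on data simulated from the genes already recovered in all 8 libraries. There 27875 of 27936 genes were recovered, none with a wrong value (99.9% of genes given the right exon length and 95.7% of 1000 given a wrong one). It does not test the genes that could not be separated. The libraries carry no sample number, so A and B are names only, A being the deeper. Many of the most abundant genes could not be separated, and the recovered genes hold 42.0% and 56.9% of the fragments of spleen Ter A and B and 52.8% and 53.8% of those of MEP A and B.

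The 8 libraries went into 1 limma fit (version 3.58.1, R 4.3.3, functions lmFit, contrasts.fit and eBayes, the last with its trend option) of log2(FPKM + 1), with 1 coefficient per group, 4 residual and 2.6 prior degrees of freedom, for 12963 genes with at least 1 FPKM in 2 libraries. For 26 of these, which lack values in liver or CMP libraries, those libraries were dropped. The spread is pooled over groups, although it was widest in spleen Ter (dispersion between libraries 0.287 in spleen Ter, 0.00622 in MEP). On data simulated with such spreads, with 50 genes changed at each fold, this fit called 18%, 68%, 88% and 94% of genes changed 2-, 4-, 8- and 16-fold. It also called 271 of 12737 unchanged genes (2.13%). These were most of its 405 calls, so the adjusted p did not hold its error rate there. With group weights it called 0%, 16%, 60% and 84%, and 4 unchanged genes among 84 calls. Far fewer genes were changed in the simulation than were called in the data, so the share of wrong calls cannot be carried over. The weights and the length trend (lowess per library) were chosen after seeing the data.

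The genes, the 48 lists and the tests were chosen with earlier results of these data known. Of 887 listed names 11 have no value and are not analysed here, and results for some further genes are not reported here. The text names list members, the 15 largest changes in each direction with at least 5 FPKM in both libraries of the higher group and no overlap, the most abundant genes, the genes that differ most between spleen Ter libraries and the abundant genes that are alike. Gene models without a name and antigen receptor segments were passed over. Gm6206 and Gm20342, at the edge of the choice, and Tpm3, parent of a named copy, fall outside that rule.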

Additional observations from a re-analysis of the deposited data

How the results depend on the processing

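The count of genes called higher in spleen Ter was 3014 as reported, 1457 with a pseudocount of 5 and 1986 with a filter of 5 FPKM, and the count called lower was 2510 as reported and 1239 with a pseudocount of 5. By group means, 3856 genes were at least 2-fold higher, which became 1655 with a pseudocount of 5 and 2349 with a filter of 5 FPKM in either column, and 2623 were at least 2-fold lower, which became 1298 with a pseudocount of 5. A higher pseudocount shrinks the change of low genes, and a higher filter tests fewer genes. Leaving out 1 library at a time gave 2560 to 3920 genes higher and 2175 to 3130 lower. Every other setting run stayed within 1.5 times the reported counts: a pseudocount of 0.1 (3565 higher, 3015 lower), no filter (2893, 2371), median-of-ratios scaling (2769, 2659), quantile normalization (2586, 2852), a total without globins (3565, 2206), only the 4 libraries (2529, 2105), no trend (3010, 2510), limma-voom on recovered counts (3568, 3124), group weights (2330, 1977) and the length trend taken out (2603, 2606). The higher share of calls was 54.6% as reported, 45.7% and 63.8% without spleen Ter library B and A, 47.6% with quantile normalization and 61.8% without globins, and the 2 scalings shifted the median over all genes by -0.13 and 0.15 on the log2 scale. Of 110 called genes named in the main results, 86 kept the call under every setting in which they were tested, 24 lost it under at least 1, and none changed direction. No paired analysis was possible because the recovered libraries carry no sample number. The precision is limited by 2 libraries per group and by depths of 14545000 to 24622000 fragments.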

Other observations

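Gene classes other than protein-coding genes were uneven as well. Of 621 tested processed pseudogenes, 245 were called higher in spleen Ter and 48 lower, and since their reads can come from parent genes these calls are uncertain. Of 10550 protein-coding genes 2126 were called higher and 2185 lower. The genes that differed most between the spleen Ter libraries included red cell genes, higher in library A, and macrophage genes, higher in library B. Cldn13, a claudin, had 59.1 FPKM in library A and 0.322 FPKM in library B, and Trim10, an erythroid protein, 43.5 and 1.65 FPKM. Apoc1, an apolipoprotein, had 4.72 FPKM in library A and 61.7 FPKM in library B, Fcna, a ficolin of macrophages, 19.7 and 190 FPKM, and Axl, a receptor for dying cells, 1.83 and 23.2 FPKM. Cldn13 and Axl were not called against MEP (adjusted p of 0.17 and 0.057 in limma). In MEP these genes had means between 0.116 FPKM (Trim10) and 0.646 FPKM (Axl).

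Other lists gave mixed counts, several of them near the 23.3% called higher and 19.4% called lower among all tested genes. Of 20 tested cholesterol synthesis genes 5 fell and none rose at the threshold, with 3 lower without spleen Ter library A or MEP library A and 2 with group weights. Of 18 cytosolic chaperones 6 rose and none fell, and of 20 tRNA synthetases 1 rose and none fell, though 5 rose without spleen Ter library A and 4 with the total without globins. Of 14 toll-like receptor genes 2 rose and 3 fell, and 4 rose without spleen Ter library A. In the list of one-carbon and nucleotide synthesis 6 of 27 rose and 1 fell (0 to 3 fell when 1 library was left out), of 14 lymphocyte homing genes 8 rose and 1 fell, and of 20 epigenetic enzymes 1 rose and 5 fell.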
